A study of Homo sapiens with 5 samples.

Results

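Levels of 10 regulators of apoptosis were followed through lung colonization by KYSE30 cells, a line of human esophageal squamous cell carcinoma (ESCC) that carries luciferase and GFP. The 10 genes, of 33538 counted, were chosen by name: MCL1, BCL2L1, BCL2, BIRC2, BIRC3, XIAP and CFLAR as anti-apoptotic genes, and PMAIP1, BCL2L11 and BAK1 as pro-apoptotic genes. Single-cell RNA was counted in 5 libraries, 1 of parental cells in culture and 4 of GFP-sorted cells from mouse lungs, taken 6 h, 48 h, 2 months or 4 months after injection into the tail vein. The hosts were NOD SCID mice aged 4 to 5 weeks, an immunodeficient strain whose T and B cells do not function while innate immunity remains, and the cells of 3, 16, 6 and 1 mice, in time order, went into the 4 lung libraries without a label of the mouse. All 5 libraries, the culture included, came from this 1 line with both reporters. With 1 library per timepoint there was no replicate, no test was made between timepoints, and all differences are differences between these libraries.

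Cells with 200 to 8000 genes, at least 1000 UMIs (unique molecular identifiers, each marking 1 captured RNA molecule) and at most 15% mitochondrial UMIs were kept, 19986 of 26712 barcodes, or 1149 to 9059 cells per library. They held 32540023 UMIs at 6 h to 204864006 in the parental library, with medians of 12979 UMIs per cell at 6 h and 39076 at 48 h as the extremes. Levels are given as UMIs of a gene per 1000000 UMIs of the kept cells (CPM), with exact Poisson 95% intervals that cover counting error only. In kept cells, 198 barcodes occurred in 2 or more libraries. Lung samples were digested with liberase and then trypsin at 37 °C before sorting. Digestion with liberase is a step for tissue, and the study does not describe how the parental cells were lifted. Digestion and residence in the lung thus cannot be told apart. A list of 12 immediate early and dissociation stress genes, FOS among them, summed to 1783 CPM in culture and to 4917, 8876, 3554 and 6058 CPM in the lung libraries in time order. A change in RNA per cell and a change in total RNA cannot be told apart on this scale either.

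The study found a subpopulation, Cluster S, by clustering and proposes that it initiates metastasis. It also tested cells sorted for signature proteins, in culture and in mice. Its looser rule asks for a UMI of any 1 of 3 genes and any 1 of 4 further genes, 7 signature genes in all. By that rule 14.5% of parental cells were positive, against 98.2% and 95.6% of the 6 h and 48 h cells and 81.8% and 99.2% of those from 2 and 4 months. The study's own shares of Cluster S at 6 h and 4 months were lower than these. Cells positive by the rule are thus not the same as Cluster S. The rule needs a UMI from both groups of genes, so a cell's class also depends on its depth. An epithelial sum went with the class. The 10 epithelial and squamous markers, mostly keratins, summed to 8656 CPM in positive and 336 CPM in negative parental cells. In the lung libraries they summed to 10643 to 21739 CPM. The genes behind the sum differed, however. In positive parental cells it came mostly from KRT18 (5559 CPM), KRT8 (1651 CPM) and KRT19 (1231 CPM). KRT14 (0.19 CPM) and KRT17 (1.90 CPM) were low there, whereas KRT17 was at 10139 CPM at 4 months. The markers were thus low in the negative cells, and KRT5, a basal keratin, was at 0.03 CPM in positive parental cells and at 0 in negative ones. Each lung library was therefore compared with all parental cells and, restricted to positive cells on both sides, with the 1310 positive parental cells. Markers of leukocytes, endothelium and fibroblasts stayed at summed levels of 1.89 to 18.6 CPM, 0.18 to 0.73 CPM and 2.37 to 13.6 CPM in the 5 libraries, and the pan-leukocyte gene PTPRC was at most 0.04 CPM in any library. These are human genes counted on the human genome, so their low levels do not show whether mouse cells of the lung were present. The leukocyte sum was highest at 6 h (18.6 CPM) and 48 h (15.2 CPM), mostly from CD68, a lysosomal gene of macrophages that other cells also express, at 16.4 and 11.2 CPM, and its part in the results was not tested. The fibroblast sum of 13.6 CPM was that of 48 h, mostly from COL1A1 (11.7 CPM). In positive cells of 48 h the sum was 4.71 CPM, so that the 50 negative cells of that library held much of it. Their part in the results was not tested.

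The guardian proteins of mitochondrial apoptosis include MCL1, BCL-XL (BCL2L1) and BCL2. Among BH3-only proteins are NOXA (the product of PMAIP1), which binds MCL1, and BIM (BCL2L11). BH3-only proteins bind guardians and free the pore-forming effectors, of which BAK (BAK1) is 1. Downstream, XIAP blocks caspases directly, whereas cIAP1 (BIRC2) and cIAP2 (BIRC3) are ubiquitin ligases that act at the TNF receptor and in NF-κB signaling. The product of CFLAR, FLIP, resembles caspase-8 without its activity and acts at death receptors. Several of these genes make opposing splice forms, which counts of transcript 3′ ends do not resolve, and capture differs between genes, so that levels are compared between libraries and not between genes.

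Promoters of 3 members are shown first. BIRC3 had the widest range over the libraries, and PMAIP1 separated the classes of cells. BIRC2 is shown for its position: it is the neighbor of BIRC3 on the same strand, with 7807 bases between the annotated end of BIRC3 and the start of BIRC2. The sequences are RefSeq windows (GRCh38.p14) of 300 bases, from 250 bases before to 50 after the transcription start, which exist here for 9 of the 10 members (not MCL1). Capitals mark matches to 2 motifs, searched on both strands: a κB-like pattern (GGG, then 2 bases of any kind, then TTTCC) in BIRC3 (chr11:102317234-102317533, plus strand), and TGACGT, the core of ATF and CREB sites, in BIRC2 (chr11:102346964-102347263, plus strand) and PMAIP1 (chr18:59899746-59900045, plus strand).
BIRC3: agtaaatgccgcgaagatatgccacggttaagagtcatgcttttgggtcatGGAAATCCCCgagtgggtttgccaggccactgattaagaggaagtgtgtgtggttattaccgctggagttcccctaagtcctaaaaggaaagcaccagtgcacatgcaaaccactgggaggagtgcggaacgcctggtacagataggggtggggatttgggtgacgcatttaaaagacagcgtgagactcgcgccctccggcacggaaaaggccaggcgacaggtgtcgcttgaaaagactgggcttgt
BIRC2: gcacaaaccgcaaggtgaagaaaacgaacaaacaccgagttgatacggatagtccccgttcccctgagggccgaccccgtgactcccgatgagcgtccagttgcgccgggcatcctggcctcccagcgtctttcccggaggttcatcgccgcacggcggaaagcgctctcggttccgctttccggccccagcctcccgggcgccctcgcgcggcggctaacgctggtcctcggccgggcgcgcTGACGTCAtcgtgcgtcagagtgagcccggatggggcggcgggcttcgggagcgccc
PMAIP1: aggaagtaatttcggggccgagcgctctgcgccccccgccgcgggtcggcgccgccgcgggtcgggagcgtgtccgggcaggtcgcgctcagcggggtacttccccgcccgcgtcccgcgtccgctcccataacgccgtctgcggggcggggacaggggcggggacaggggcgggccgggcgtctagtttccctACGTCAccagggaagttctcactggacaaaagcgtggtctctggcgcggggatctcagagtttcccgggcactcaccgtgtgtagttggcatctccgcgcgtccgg
Of 35116 promoter windows, 1.91% held the κB-like pattern and 7.98% held TGACGT. The BIRC3 match lay 199 to 190 bases before the start, and among members no other window held that pattern. Windows of NFKBIA and TNFAIP3, feedback inhibitors of NF-κB, did, whereas TRAF1, a TNF pathway gene looked up with them, gave no match. A looser pattern, GGG and TCC with 4 bases of any kind between them, which includes the first, was in 22.6% of windows. Among members it was in windows of BIRC2, CFLAR, PMAIP1 and XIAP as well as BIRC3. In BIRC2 TGACGT matched on both strands at overlapping positions, 7 to 0 bases before the start, and in PMAIP1 on the minus strand 56 to 51 bases before it. A second window of XIAP held TGACGT after its start. The spellings were settled after several had been tried, and a match is a description of the letters and not a binding site.

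The guardian MCL1 (chr1:150560895-150579738, minus strand) was higher in all 4 lung libraries than in culture, with 50.6 CPM (49.7 to 51.6) in parental cells, 208 CPM (203 to 213) at 6 h, 244 CPM (240 to 248) at 48 h, 84.6 CPM (82.6 to 86.7) at 2 months and 117 CPM (115 to 119) at 4 months. All 5 intervals were apart, with both early lung libraries highest and the culture lowest. Against all parental cells the log2 ratio (1 CPM added to each level) was 2.02 and 2.25 at 6 h and 48 h and 0.73 and 1.19 in the late libraries. Against positive parental cells, which held 63.2 CPM, positive lung cells had ratios of 1.70, 1.93, 0.73 and 0.88 in the same order.

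Cells without an MCL1 UMI were fewest at 48 h. At full depth 60.0% of parental cells had one, against 58.9% and 87.2% at 6 h and 48 h and 74.0% and 81.7% at 2 and 4 months. In cells thinned to 10000 UMIs, 63.8% of parental cells had no MCL1 UMI, against 26.7% and 17.9% at 6 h and 48 h and 44.6% and 36.7% at 2 and 4 months, after 925, 779, 165, 509 and 620 shallower cells were left out of the libraries in time order from the culture. Cells with 5 or more MCL1 UMIs made up 12.2% at 6 h and 15.1% at 48 h, against 0.28% of parental cells. The libraries held no cell type that should lack these genes, so the share that free RNA gives was not measured.

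BCL2L1 (chr20:31664452-31723989, minus strand), which encodes BCL-XL, stood at 13.8 CPM (13.3 to 14.3) in parental cells, 56.1 CPM (53.5 to 58.7) at 6 h, 74.4 CPM (71.95 to 76.9) at 48 h, 32.1 CPM (30.9 to 33.4) at 2 months and 29.6 CPM (28.6 to 30.5) at 4 months. The parental library was lowest and no 2 intervals overlapped. The classes of the culture differed as well, with 34.6 CPM in positive and 10.0 CPM in negative parental cells, a log2 ratio of 1.69. Against positive parental cells BCL2L1 was higher by 0.69 on the log2 scale at 6 h, by 1.08 at 48 h and by 0.25 at 2 months, and its ratio at 4 months was -0.22, where the interval of the plain ratio, 0.799 to 0.915, lay below 1.

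BCL2 itself (chr18:63123346-63320128, minus strand) was scarce throughout, with 2.07 CPM in parental cells, 0.86 CPM at 6 h, 0.75 CPM at 48 h, 2.56 CPM at 2 months and 0.88 CPM at 4 months. It reached 5 CPM in no library and was not counted in any comparison. Its intervals overlapped among 6 h, 48 h and 4 months (0.52 to 1.24 CPM over all 3 libraries), and the parental and 2 months libraries lay above them.

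BIRC3 (chr11:102317484-102339403) differed most. It had 0.45 CPM (0.37 to 0.56) in parental cells from 93 UMIs, 39.7 CPM (37.6 to 41.9) at 6 h, 109 CPM (106 to 112) at 48 h, 2.45 CPM (2.12 to 2.81) at 2 months and 5.27 CPM (4.87 to 5.69) at 4 months. The level at 48 h was 240 times that of parental cells (195 to 297) and 107 times that of positive parental cells (75.9 to 157), which held 1.01 CPM. After 48 h it was far lower, with a log2 ratio of 2 months against 48 h of -4.99, yet all lung libraries stayed above the culture.

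Of the members with 5 CPM, BIRC3 was also the most unevenly spread over cells in both early lung libraries. At 6 h, 77.9% of its UMIs came from the 10% of cells with the most, and 22.9% of cells had any. At 48 h, 48.2% came from such cells and 67.1% of cells had any, with up to 107 UMIs in 1 cell. Within positive cells it went with 13 NF-κB subunits and feedback genes: from the quintile of cells with the lowest share of UMIs of that list to the quintile with the highest, BIRC3 went from 5.18 to 97.9 CPM at 6 h and from 40.2 to 217 CPM at 48 h. In the late libraries it went from 0.90 to 13.9 CPM and from 0.86 to 20.2 CPM. In positive parental cells the same quintiles held 0.36 and 1.42 CPM, with overlapping intervals. At 6 h this was not particular to BIRC3: all 9 members with 5 CPM were higher past 2-fold in the highest quintile, as were 52.9% of all genes, and MCL1 (13.1 to 316 CPM) and PMAIP1 (8.98 to 189 CPM) went up by more. At 48 h BIRC3 and PMAIP1 were higher, of 9 members (7.61% of all genes). At 2 months they were BIRC3 and BCL2L11 (2.87%) and at 4 months BIRC3 alone (2.98%), and in positive parental cells 0 of 8 members were (0.603%).

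BIRC2 (chr11:102347211-102378670), next to BIRC3, moved in a narrower range, with 10.2 CPM (9.72 to 10.6) in parental cells, 37.6 CPM (35.6 to 39.8) at 6 h, 48.4 CPM (46.4 to 50.4) at 48 h, 15.2 CPM (14.3 to 16.1) at 2 months and 13.7 CPM (13.1 to 14.4) at 4 months. The early lung libraries were high and the others low, and only the intervals of the 2 late libraries overlapped, just (14.34 to 14.40 CPM). Both parental classes held about the same, 10.6 and 10.1 CPM. BIRC2 was thus 3.55 times (3.14 to 4.02) the positive parental level at 6 h and 4.56 times (4.06 to 5.13) at 48 h.

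XIAP (chrX:123859712-123913972, plus strand) varied least, with 20.6 CPM (19.98 to 21.2) in parental cells, 29.7 CPM (27.9 to 31.7) at 6 h, 28.0 CPM (26.5 to 29.5) at 48 h, 25.8 CPM (24.7 to 26.9) at 2 months and 21.8 CPM (21.04 to 22.7) at 4 months. Positive parental cells held 28.3 CPM, and against them the plain ratio of positive lung cells was 1.05 (0.960 to 1.15) at 6 h and 0.989 (0.907 to 1.08) at 48 h. In the late libraries it was 1.01 (0.932 to 1.10) and 0.771 (0.715 to 0.833). The first 3 intervals included 1, and the sign of these 3 log2 ratios changed between settings.

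CFLAR (chr2:201116154-201176687, plus strand) was the 1 anti-apoptotic member whose level at 6 h lay above that at 48 h without overlap. It had 10.7 CPM (10.3 to 11.2) in parental cells, 48.4 CPM (46.04 to 50.9) at 6 h, 35.5 CPM (33.9 to 37.3) at 48 h, 9.53 CPM (8.87 to 10.2) at 2 months and 11.4 CPM (10.9 to 12.04) at 4 months. Both late libraries were near the culture, 2 months just below and 4 months overlapping it, and the sign of both late ratios changed between settings. Within the late tumors CFLAR differed by class, with 8.08 CPM in positive and 13.5 CPM in negative cells at 2 months.

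**Figure D1:**
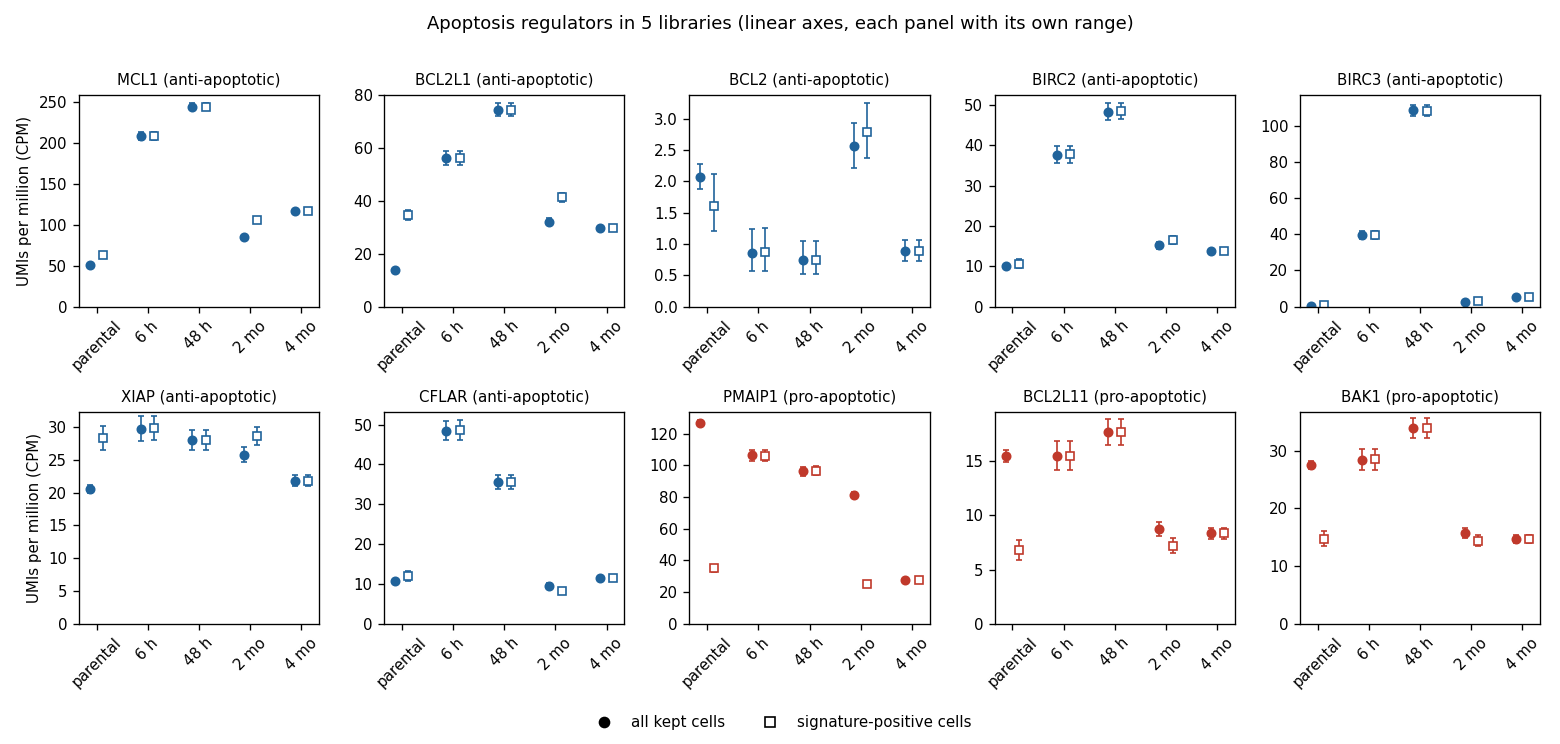
Level of each member in CPM (vertical axes, linear, a range of its own per panel) in the 5 libraries, for all kept cells (filled circles) and signature-positive cells (open squares), with exact Poisson 95% intervals. MCL1, BCL2L1, BIRC2, BIRC3 and CFLAR peak at 6 h or 48 h, and over all cells XIAP, BCL2L11 and BAK1 are also highest there, with narrower ranges. PMAIP1 goes from 127 to 27.8 CPM over all cells, but in positive cells it starts at 34.9 CPM in culture and is highest at 6 h (106 CPM).

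PMAIP1 (chr18:59899996-59904305, plus strand), which encodes the MCL1-binding NOXA, was lower in each later library over all cells, with 127 CPM (126 to 129) in parental cells, 106 CPM (103 to 110) at 6 h, 96.4 CPM (93.6 to 99.2) at 48 h, 81.4 CPM (79.5 to 83.4) at 2 months and 27.8 CPM (26.9 to 28.8) at 4 months. Each library lay below the 1 before it, and no intervals overlapped. The classes of cells gave another order. Negative parental cells held 144 CPM and positive ones 34.9 CPM, and at 2 months negative cells held 235 CPM and positive ones 24.9 CPM.

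The direction for PMAIP1 in the early lung therefore depended on the reference. Against all parental cells its log2 ratio was -0.26 at 6 h and -0.40 at 48 h, whereas against positive parental cells it was 1.58 and 1.44, ratios of 3.04 (2.84 to 3.25) and 2.76 (2.59 to 2.95). At 2 and 4 months positive cells were below positive parental cells, with log2 ratios of -0.47 and -0.32. The log2 ratio of 4 against 2 months, -1.51 over all cells, was 0.16 between positive cells, and the 606 negative cells of 2 months, 18.2% of that library, held 5116 of its 6587 PMAIP1 UMIs. The 10% of cells with the most held 74.2% of PMAIP1 UMIs at 2 months, against 46.3% in the parental library.

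BCL2L11 (chr2:111119378-111168444, plus strand), which encodes the BH3-only protein BIM, had 15.5 CPM (14.98 to 16.1) in parental cells, 15.5 CPM (14.2 to 16.9) at 6 h, 17.7 CPM (16.5 to 18.9) at 48 h, 8.77 CPM (8.13 to 9.44) at 2 months and 8.35 CPM (7.85 to 8.87) at 4 months. The parental and 6 h intervals overlapped, as did those of both late libraries. Positive parental cells held 6.80 CPM and negative ones 17.1 CPM, so that the positive cells at 6 h and 48 h were 2.28 times (1.94 to 2.68) and 2.60 times (2.24 to 3.04) their parental counterpart.

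BAK1 (chr6:33572547-33580293, minus strand), the effector, stood at 27.5 CPM (26.8 to 28.3) in parental cells, 28.4 CPM (26.6 to 30.3) at 6 h, 33.9 CPM (32.2 to 35.6) at 48 h, 15.7 CPM (14.8 to 16.6) at 2 months and 14.6 CPM (13.9 to 15.3) at 4 months. Only 48 h lay above the culture without overlap. Positive parental cells held 14.7 CPM, and positive lung cells were 1.93 times (1.73 to 2.17) that level at 6 h and 2.30 times (2.08 to 2.56) at 48 h. In the late libraries the plain ratios were 0.975 (0.869 to 1.09) and 0.992 (0.896 to 1.10), whose intervals included 1.

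Counted together, a member was taken as past 2-fold when it had at least 5 CPM in either group and its log2 ratio was at least 1 or at most -1. Against all parental cells, MCL1, BCL2L1, BIRC2, BIRC3 and CFLAR, 5 of 9 members with that level, were higher at 6 h and again at 48 h, and 0 were lower. Over all genes 17.2% were higher and 27.8% lower at 6 h, and 19.7% higher and 24.2% lower at 48 h. At 2 months BCL2L1 alone was higher, of 8 members, where 10.4% of all genes were higher and 11.5% lower. At 4 months MCL1, BCL2L1 and BIRC3 were higher and PMAIP1 was lower, of 9 members, beside 13.4% of all genes higher and 30% lower. With 5 CPM in place of 1 CPM added, BCL2L1 was within 2-fold in both late libraries (0.98 and 0.88) and BIRC3 at 4 months (0.91). The median log2 ratio of the anti-apoptotic members was 1.98, 2.20, 0.54 and 0.72 in time order and that of the 3 pro-apoptotic members -0.00, 0.18, -0.76 and -0.87, beside medians over all genes of -0.29, -0.12, -0.20 and -0.44. These 4 comparisons share the parental library.

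Between positive cells the picture was less one-sided. At 6 h, 6 of 9 members were higher, MCL1, BIRC2, BIRC3, CFLAR, PMAIP1 and BCL2L11, where 10.6% of all genes were higher and 12.4% lower. At 48 h, 8 of 9 were higher, all but XIAP, beside 12.9% of all genes higher and 9.43% lower. At 2 months 0 of 8 members were past 2-fold in either direction (8.82% of all genes higher, 10.2% lower), and at 4 months BIRC3 alone was higher, of 9, with 8.18% and 14.5% as the background. That BIRC3 level, 5.27 CPM over all cells, is close to the minimum of 5 CPM, and its call was lost with 5 CPM added (0.77), with a minimum of 10 CPM and without the cells lowest in stress genes. With 5 CPM added, BCL2L11 at 6 h (0.80) and 48 h (0.94) and BAK1 at 48 h (0.98) also fell within 2-fold. BCL2L11 at 6 h did so too with equal weight of cells (0.90) and without the cells highest in stress genes (0.85). Scaling without mitochondrial and ribosomal protein genes took BCL2L11 at 6 h (0.98), and BAK1 (0.95) and BCL2L1 (0.87) at 48 h, within 2-fold. BCL2L1 at 48 h was also within 2-fold with the median of ratios (0.97) and with equal weight of cells (0.98). Median log2 ratios of the pro-apoptotic members were 1.08 and 1.26 at 6 h and 48 h, and those of the anti-apoptotic members 1.72 and 1.72, beside -0.05 and 0.11 over all genes. Thus members of both kinds were higher in the early lung cells than in the positive cells of the culture.

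**Figure D2:**
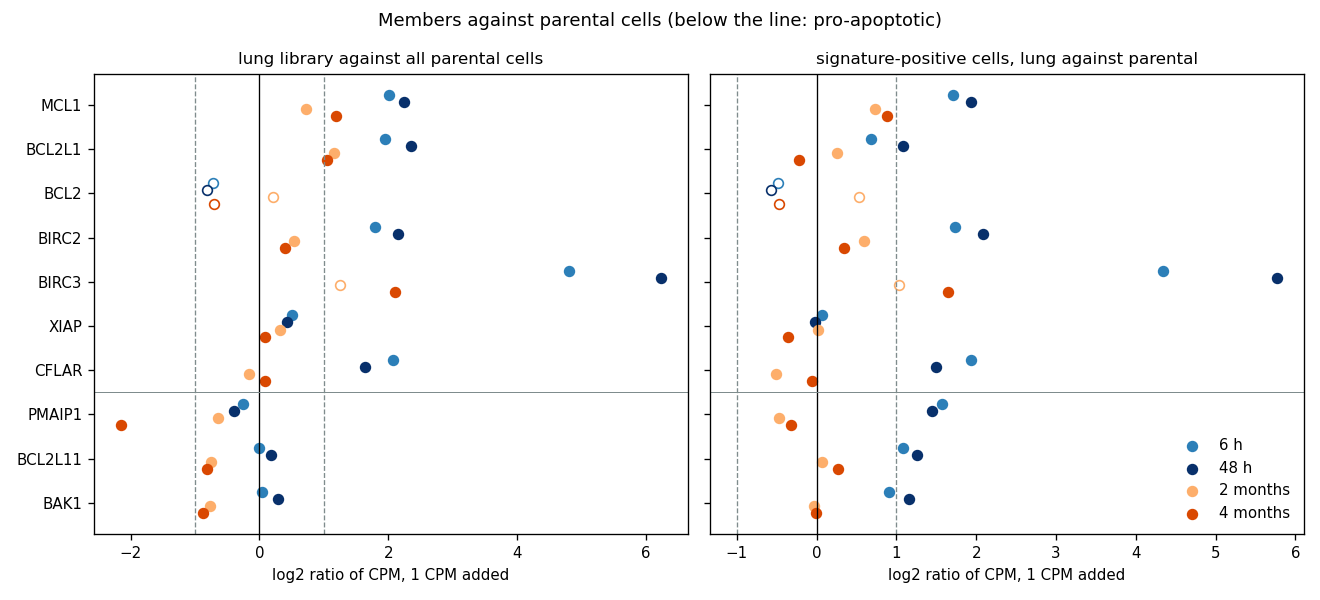
Log2 ratio of each member against all parental cells (left) and between signature-positive cells (right), 1 CPM added, with a point per lung timepoint; open points had under 5 CPM in both groups, and dashed lines mark 2-fold. PMAIP1 lies at -0.26 and -0.40 for 6 h and 48 h on the left and at 1.58 and 1.44 on the right, while XIAP stays within 2-fold in both panels.

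From 1 lung timepoint to the next, BIRC3 was the member that was higher past 2-fold at 48 h than at 6 h, 1 of 9, where 3.24% of all genes were higher and 1.42% lower. From 48 h to 2 months MCL1, BCL2L1, BIRC2, BIRC3, CFLAR and BAK1, 6 of 9, were lower, beside 13% of all genes lower and 12.2% higher. BCL2L1 was within 2-fold there with equal weight of cells (-0.80) and in positive lung cells (-0.84). BAK1 was so with 5 CPM added (-0.91), scaled without mitochondrial and ribosomal protein genes (-0.90) and with the median of ratios (-0.97). The pro-apoptotic members fell further between positive lung cells, PMAIP1 to -1.91, BCL2L11 to -1.19 and BAK1 to -1.19. Over all cells PMAIP1 was at -0.24 and BCL2L11 at -0.94. The share of all genes was not computed for positive cells here. From 2 to 4 months PMAIP1 was lower, 1 of 9, with 9.38% of all genes lower and 3.03% higher.

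The 2 classes of a library shared its handling. In the parental library 1 of 8 members, BCL2L1, was higher past 2-fold in positive than in negative cells (12.9% of all genes), and 2, PMAIP1 and BCL2L11, were lower (18.8%), while BAK1 had a log2 ratio of -0.97. The call of BCL2L11 was lost with 5 CPM added (-0.91) and with the median of ratios (-0.98). At 2 months MCL1 (1.90) and BCL2L1 (2.34) were higher in positive cells (18.8% of all genes) and PMAIP1 (-3.19) was lower (21.9%). The negative cells of 2 months, compared with those of the culture, had 0 of 8 members past 2-fold, where 0.601% of all genes were higher and 2.05% lower.

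Added up, the anti-apoptotic members had 0.64 UMIs for each UMI of the 3 pro-apoptotic members in parental cells (0.627 to 0.648). Early in the lung the ratio was 2.80 (2.71 to 2.89) and then 3.65 (3.55 to 3.75), and late it was 1.63 (1.58 to 1.67) and then 3.93 (3.83 to 4.04). No 2 intervals overlapped, and the culture had the lowest ratio. Since capture differs between genes, the ratio is read between libraries and not against 1. By class, the ratio was 2.68 in positive and 0.53 in negative parental cells, and 4.44 in positive and 0.30 in negative cells at 2 months. Among positive cells 6 h (2.81) was thus near the parental 2.68, with overlapping intervals of 2.72 to 2.90 and 2.54 to 2.83, and 48 h (3.65), 4 months (3.93) and 2 months (4.44) lay above.

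The sums depended on MCL1 and PMAIP1. Without PMAIP1 the ratio was 2.52 in parental cells and 7.04 to 10.5 in the lung libraries. Without MCL1 it was 0.34 in parental cells and 0.83 to 2.00 in the lung libraries. The culture taken whole thus stayed lowest either way. Between positive cells this did not hold without MCL1, where 6 h had a lower ratio than the culture. The anti-apoptotic sums were then 213 CPM at 6 h and 88.1 CPM in culture, beside pro-apoptotic sums of 150.04 and 56.4 CPM. The summed levels themselves moved apart by stage: in positive cells, anti-apoptotic members summed to 151 CPM in culture, 421 CPM at 6 h, 540 CPM at 48 h, 206 CPM at 2 months and 199.8 CPM at 4 months. The pro-apoptotic sums were 56.4, 150.04, 148, 46.4 and 50.8 CPM in the same order. Early lung cells were high in both sums, and late ones were above positive parental cells in the first and below them in the second. The lower late pro-apoptotic sums rested on PMAIP1. The higher anti-apoptotic sum rested on MCL1 at 4 months and only in part at 2 months. Without MCL1 the anti-apoptotic sum of positive cells was 88.1 CPM in culture, 100.4 CPM at 2 months and 82.7 CPM at 4 months, and without PMAIP1 the pro-apoptotic sum was 21.52, 21.53 and 22.96 CPM.

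**Figure D3:**
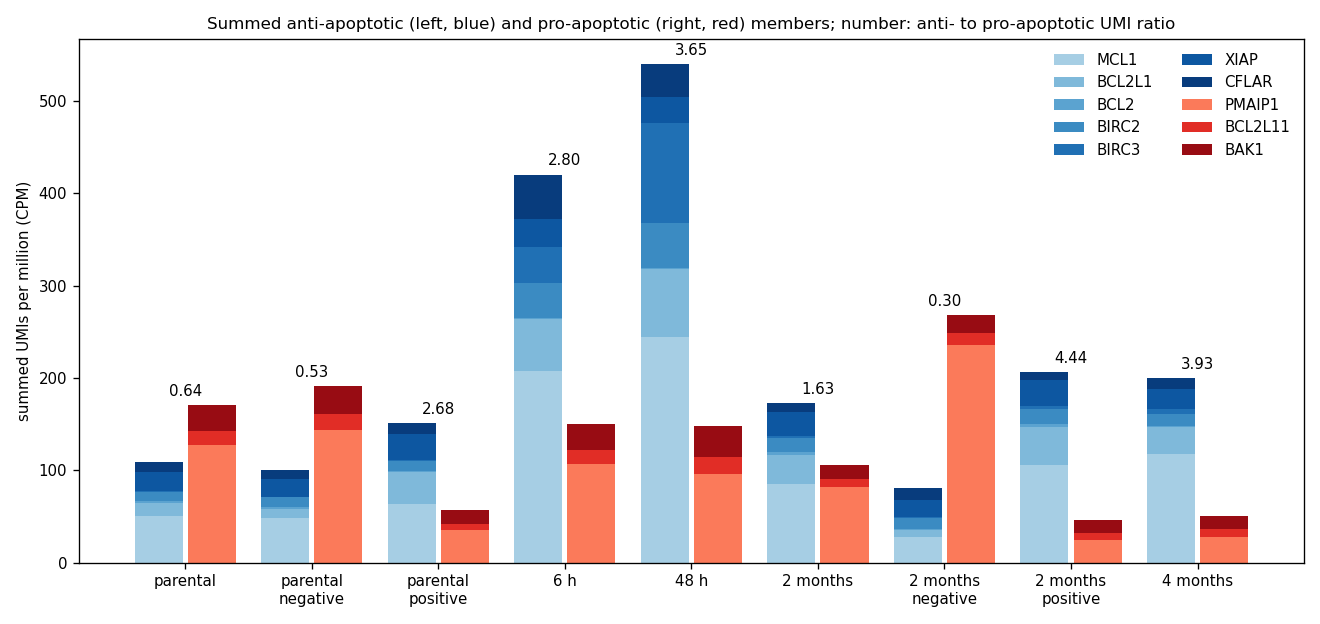
Stacked levels of the 7 anti-apoptotic (left bar, blue) and 3 pro-apoptotic members (right bar, red), in summed CPM from 0, for the 5 libraries and the classes of the parental and 2 months libraries; the number above each pair is the anti- to pro-apoptotic UMI ratio. Negative cells have the taller red bars (ratios 0.53 and 0.30), made up mostly of PMAIP1, and 48 h has the tallest blue bar at 540 CPM.

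Shares of cells with at least 1 UMI depended on depth. With each cell thinned to 3000 UMIs, which left 8902 parental, 1834, 1073, 3234 and 4218 cells, 27.2% of parental cells had a UMI of any anti-apoptotic member, against 53.5% and 73.7% at 6 h and 48 h and 42.1% and 45.4% at 2 and 4 months. For any pro-apoptotic member the shares were 34.5% in culture and 26.2%, 33.9%, 17.4% and 14.4% in the lung libraries in time order. Without thinning, 73.8% of cells at 6 h and 83.8% to 92.0% in the other libraries had an anti-apoptotic UMI, so that 6 h, the shallowest library, turned from the second highest to the lowest. The shares with a pro-apoptotic UMI were then 84.2% in culture and 58.7%, 84.5%, 58.1% and 62.4% in the lung.

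The 6 h library was not uniform. Its 1922 positive cells were ordered by the share of their UMIs from those 12 stress genes, none of them a member. In the quintile lowest in these genes MCL1 had 4.47 CPM and in the highest 353 CPM, with 92.2, 205 and 249 CPM in between. PMAIP1 went from 9.59 to 195 CPM, BIRC3 from 7.99 to 59.6 CPM, BCL2L1 from 19.5 to 50.2 CPM and XIAP from 6.39 to 39.3 CPM. In the lowest quintile MCL1 and PMAIP1 were below the positive parental levels of 63.2 and 34.9 CPM. So were BCL2L1 (19.5 against 34.6 CPM), XIAP (6.39 against 28.3 CPM), BCL2L11 (2.24 against 6.80 CPM) and BAK1 (9.27 against 14.7 CPM). BCL2 was at 0 and CFLAR slightly below, while BIRC2 and BIRC3 were above.

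This split went far beyond the members. In the highest against the lowest quintile at 6 h, 9 of 9 members with 5 CPM were higher past 2-fold, where 54.1% of all genes were. The lowest quintile was shallow, with medians of 6866 UMIs and 1525 genes against 13278 UMIs and 3149 genes in the highest. The same comparison gave 1 of 8 members in positive parental cells (2.3% of all genes) and 2 of 9 at 48 h (4.72%), and late in the lung 3 of 9 (7.63%) and 0 of 9 (4.44%). The part of digestion, depth or cell damage in the 6 h split was not tested. The anti- to pro-apoptotic ratio was 2.94 (2.21 to 3.95) in the lowest quintile, which held only 66 pro-apoptotic UMIs, and 2.92 to 3.02 in the middle 3. In the highest it was 2.48 (2.33 to 2.64), below the middle 3 without overlap.

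At 48 h even the quintile of positive cells lowest in that list stood above positive parental cells in most members, with 144 CPM of MCL1, 70.2 CPM of BIRC3, 40.2 CPM of BIRC2, 97.4 CPM of PMAIP1 and 35.6 CPM of BAK1, while XIAP was at 21.1 CPM against 28.3 CPM. That quintile still had 2443 CPM of the 12 genes, however, against 984 CPM in positive parental cells, so that no 48 h group was as low in them as the culture. In the late libraries MCL1 went up with the list, from 77.3 to 165 CPM at 2 months and from 92.00 to 164 CPM at 4 months, and also in positive parental cells, from 52.3 to 82.1 CPM. PMAIP1 did so in positive parental cells as well, from 22.5 to 59.8 CPM.

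**Figure D4:**
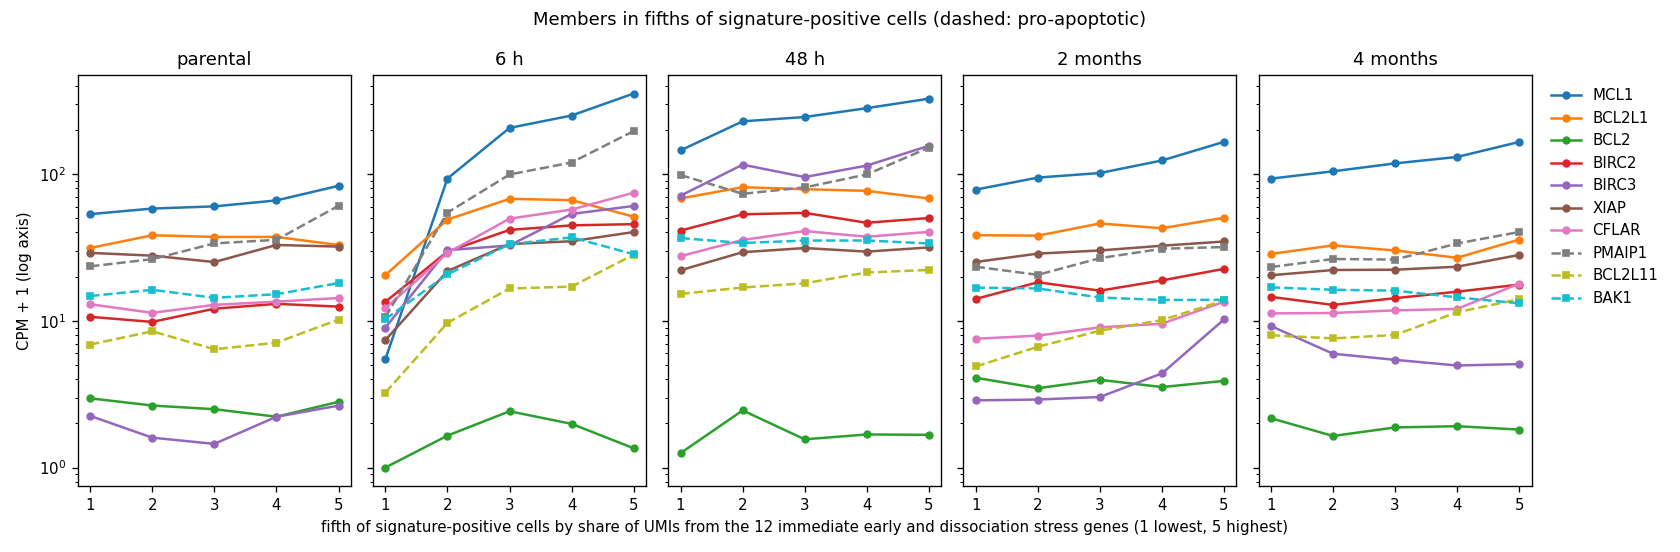
CPM plus 1 of each member (vertical log axis) in 5 equal groups of the signature-positive cells of each library, ordered by the share of UMIs from 12 immediate early and dissociation stress genes; dashed lines are pro-apoptotic members. The 6 h lines climb from the lowest group, where MCL1 is at 4.47 CPM, to the highest, where it is at 353 CPM, and those of the other libraries are flatter.

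Cells of 2 months were also ordered by their share of UMIs of G2 and M phase genes. From the lowest to the highest quintile 1 of 8 members, PMAIP1, was higher (17.6% of all genes) and 1, BCL2L1, was lower (12.5%). PMAIP1 was at 13.2 CPM in the lowest and 151 CPM in the highest quintile, 54.7% of whose cells were positive against 98.2% in the lowest. Among positive cells alone it was 12.03 and 34.8 CPM, a log2 ratio of 1.46, as the 1 of 8 members that was higher (6.47% of all genes), with 0 lower (4.98%). BCL2L1 went the other way at 2 months, from 54.4 to 17.9 CPM over all cells and from 55.1 to 33.4 CPM in positive ones. In the other libraries, ordered in the same way over all cells, both genes differed less. The log2 ratio of PMAIP1 was 0.38 in culture, 0.32 at 6 h and 0.25 at 4 months. At 48 h it was -0.47, from 102.8 to 74.2 CPM. That of BCL2L1 was -0.02 in culture and at 6 h, -0.25 at 48 h and -0.49 at 4 months.

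Other genes of the apoptosis pathway, from lists made for these comparisons, showed how the members stood among their partners. Of 13 further BCL2 family genes, 10 reached 5 CPM at 6 h. BOK, BBC3 and BIK were higher than in all parental cells (17.2% of all genes) and HRK and BCL2L12 lower (27.8%). Their median log2 ratio was 0.03, beside -0.29 over all genes. The BH3-only gene BIK held 143 CPM at 6 h and 126 CPM at 48 h against 9.68 CPM in all and 43.98 CPM in positive parental cells. BBC3, which encodes the BH3-only protein PUMA, held 23.6 and 52.5 CPM against 10.2 CPM in all parental cells. HRK, a further BH3-only gene, was at 0.68 CPM at 6 h and 9.38 CPM in parental cells. It was also lower past 2-fold in positive than in negative cells, in culture and at 2 months. Between positive cells, 9 of these genes reached 5 CPM at 6 h and at 48 h. BBC3 and BIK were higher at both (10.6% and 12.9% of all genes). BCL2L12 was lower at 6 h (12.4% of all genes) and 0 were lower at 48 h (9.43%), while HRK and BOK were not called.

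Death receptor and TNF pathway genes were mostly higher than in all parental cells early on: 10 of 12 with 5 CPM at 6 h and 11 of 13 at 48 h (medians 1.88 and 2.18), beside 17.2% and 19.7% of all genes. Between positive cells they were 6 of 12 and 8 of 13, beside 10.6% and 12.9%. TRAF1, an adaptor that binds BIRC2 and BIRC3, had 73.3 CPM at 48 h and 0.47 CPM in parental cells. At 2 and 4 months 5 of 12 and 6 of 13 were higher, beside 10.4% and 13.4% of all genes. Among them was TNFSF10, the ligand TRAIL, at 16.1 and 33.5 CPM against 0.23 CPM in parental cells. TNFRSF21, a death receptor, was lower at 4 months, where 30% of all genes were. Between positive cells 2 of 12 and 3 of 13 were higher at 2 and 4 months, beside 8.82% and 8.18% of all genes (medians -0.01 and 0.37). TNFRSF21 was lower at both, where 10.2% and 14.5% of all genes were. Of 9 caspase and apoptosome genes, 8 reached 5 CPM at 6 h and 48 h, of which 0 and 1 were higher and 3 and 2 lower, where 27.8% and 24.2% of all genes were lower. Between positive cells 0 of 8 were past 2-fold in either direction at both timepoints, where 12.4% and 9.43% of all genes were lower. APAF1, the apoptosome scaffold, was at 12.4 CPM in parental cells and 3.44 CPM at 4 months. BIRC5, an IAP family gene of dividing cells, was at 290 CPM in parental cells and at 76.6, 62.6, 121 and 42.3 CPM in the lung libraries in time order.

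Of the 13 NF-κB genes, 9 were higher at 6 h and 10 at 48 h than in all parental cells (medians 1.63 and 2.08), 4 at 2 months and 4 at 4 months, and 0 were lower. In the same order 17.2%, 19.7%, 10.4% and 13.4% of all genes were higher, and 27.8%, 24.2%, 11.5% and 30% lower. Between positive cells the counts were 9 and 11 of 13, and 2 and 5 of 12, beside 10.6%, 12.9%, 8.82% and 8.18% of all genes. BCL3 was lower at both late timepoints, where 10.2% and 14.5% of all genes were. TNFAIP3, which limits NF-κB signaling, had 44.01 CPM at 6 h and 69.1 CPM at 48 h, against 1.09 CPM in parental cells. Of the integrated stress response genes, 7 of 9 were higher than in all parental cells at both early timepoints (median 1.60 at 48 h), beside 17.2% and 19.7% of all genes. Between positive cells they were 7 of 9 at 6 h and 5 of 9 at 48 h (medians 1.32 and 1.04), beside 10.6% and 12.9%. Among them was ATF3, with 328 and 501 CPM at 6 h and 48 h against 21.96 CPM in all parental cells. In the negative cells of 2 months against those of the culture, 0 genes of any of these lists were past 2-fold. Few genes of any kind were, 0.601% higher and 2.05% lower, so this count is not particular to the lists.

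Genes with the profile most like a member were ranked by distance over 6 groups (both parental classes and the 4 lung libraries), on centered log2 levels, among 11559 genes with 5 CPM in any group. Nearest to BIRC3 were IL11, at a distance of 0.86, NFKBIA (1.31) and TRAF1 (1.43). Nearest to MCL1 were SLC5A3 (0.29), GADD45A (0.37) and AC128688.2 (0.38), to BIRC2 TRAF2 (0.31), N4BP3 (0.36) and CALM2 (0.37), and to CFLAR CPZ (0.34), HIST1H2BJ (0.39) and RABGEF1 (0.42). PMAIP1 had BRD2 (0.42), BRD9 (0.66) and VKORC1 (0.79) nearest, and BCL2L1 had SLC44A2 (0.26), ARAP2 (0.29) and ARRDC1 (0.29). BAK1 was itself the third nearest gene to BCL2L11 (0.23), after RAB24 (0.21) and ZBTB11-AS1 (0.23), and BAK1 had TSSC4 (0.18), PPP1R10 (0.21) and PPP3CC (0.22) nearest. BCL2, at its low level, had PHIP (0.24), ZNF566 (0.25) and CFAP97 (0.25), and XIAP spanned only 0.61 on the log2 scale and was not ranked. The distances describe 6 groups from 5 libraries and are no measure of shared control.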

How the data were processed

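Single-cell RNA of 5 libraries (10x Chromium, 3′ chemistry) was analysed. The authors deposited, for each library, the counts of UMIs per gene and barcode, unnormalized and with barcodes outside the study's cell limits still present; Cell Ranger 3 and GRCh38 are named in the submitters' processing notes, and 3.0.2 as the software version in the file headers. Samples were grouped by the timepoint in the labels. No test could be made with 1 library per group. The study's cell limits were applied, counts were summed per library or class, and log2 ratios of CPM had 1 CPM added. Shares have Clopper-Pearson and CPM exact Poisson 95% intervals, ratios of CPM conditional exact binomial ones, and a count of 0 allows 3 counts. No doublet caller was run, and the upper limit of 8000 genes was the 1 step that bears on doublets. Cells were thinned with a fixed seed.

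The members and gene lists were chosen with earlier results of these data known. All 10 members are named, and from the other pathway lists together up to 6 genes per comparison could be named, 3 from each end of the ratios; for each member that spans at least 1 on the log2 scale, the 3 nearest genes are named. BOK, BIK, BBC3, TNFAIP3, BCL3 and ATF3 were named after their values were seen. Symbols with 2 identifiers (DIABLO) were left out. Gene positions come from GENCODE on GRCh38, matched by identifier. The alternatives were other cell filters, equal weight of cells, leaving out the 5% deepest cells, positive cells alone, 0.5 or 5 CPM added, a minimum of 1 or 10 CPM, scaling without mitochondrial and ribosomal protein genes or by the median of ratios, and sums without MCL1 or PMAIP1. Leaving out the 20% of lung cells lowest or highest in stress genes, ordering by stress and NF-κB genes and thinning to 10000 UMIs were chosen after seeing the data. Python 3.11.15, numpy 2.4.6, scipy 1.17.1, pandas 2.3.3 and matplotlib 3.10.9 were used, and the computations were tested on simulated data. The names of some signature genes are left out.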

Additional observations from a re-analysis of the deposited data

Results flagged for a closer look

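For 4 members with 5 CPM in both comparisons the 2 months library stood on opposite sides of the culture in the 2 classes of cells, with counting intervals of both ratios apart from 1, a difference that was not tested. The share of all genes that meet the same rule was not computed, so this count has no background and is not read as particular to the members. BCL2, XIAP and BCL2L11 also had ratios of opposite sign without meeting that rule. In positive cells the log2 ratio of 2 months against parental was 0.73 for MCL1, 0.25 for BCL2L1, -0.51 for CFLAR and -0.47 for PMAIP1. In negative cells it was -0.79 for MCL1, -0.40 for BCL2L1, 0.33 for CFLAR and 0.70 for PMAIP1. The value of BCL2L1 in negative cells was 0.09 with equal weight of cells, so that its opposition to positive cells does not hold there.

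Barcodes over 15% mitochondrial UMIs, which no comparison uses, numbered 294 in the parental library, 348 and 636 at 6 h and 48 h, and 1289 and 1424 at 2 and 4 months, with medians of 3422.5 to 6195.5 UMIs. On a scale of non-mitochondrial UMIs, several members were over 2-fold higher in them than in the kept cells of the same library. The share of all genes over 2-fold higher in these barcodes was not computed, so the members cannot be told apart from a general shift. The BCL2 value in the parental library rests on 8 UMIs, with a plain ratio of 4.32 (1.85 to 8.59). The log2 ratio was 1.71 for BCL2, 1.59 for XIAP, 1.31 for CFLAR and 1.20 for BCL2L11 in the parental library, 1.12 for BIRC3 at 6 h, and 1.06 for BIRC3 and 1.08 for BCL2L11 at 48 h. At 2 months it was 1.30 for MCL1, 1.11 for BCL2L1 and 1.21 for BIRC3. At 4 months it was 1.38 for MCL1, 1.35 for BIRC3, 1.28 for XIAP, 1.14 for CFLAR and 1.28 for BCL2L11. PMAIP1 stayed within 2-fold, with ratios of -0.71 in culture and 0.52, 0.96, -0.85 and 0.86 in the lung libraries in time order.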

How the results depend on the processing

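No paired analysis was possible because each group has 1 library and all libraries carry the same replicate number. For the same reason no replicate could be left out. The count of members past 2-fold stayed within 1.5 times in 173 of its alternatives and moved in 14, the anti- to pro-apoptotic ratio stayed within its counting interval in 41 and left it in 38, and of the log2 ratios of single members 1273 moved by less than counting error, 316 by more and 1 that was past 2-fold turned sign. Of 140 such ratios, 23 took both signs over the settings. The cause of these shifts was not tested. Depth limits BCL2 throughout, and BIRC3 in culture with 93 UMIs.

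Of the counts, 2 months against parental, where 1 member was past 2-fold, gave 2 with equal weight of cells, 2 with a minimum of 1 CPM, 4 with signature-positive lung cells alone and 0 with 5 CPM added (BCL2L1 then at 0.98). For 4 months against parental 4 became 2 with 5 CPM added. Between positive cells, 2 months had 0, or 1 with a minimum of 1 CPM, and 4 months had 1, or 2 with the median of ratios and 0 with 5 CPM added, with a minimum of 10 CPM or without the cells lowest in stress genes. For 4 against 2 months 1 became 2 with a mitochondrial limit of 10%, without the cells highest in stress genes or with the median of ratios, and 0 in signature-positive cells, where the ratio of PMAIP1 turned to 0.16.

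Without MCL1 and without PMAIP1, the anti- to pro-apoptotic ratio was 0.340 and 2.52 in parental cells, 1.41 and 9.58 at 6 h, 2.00 and 10.5 at 48 h, 0.828 and 7.04 at 2 months and 1.63 and 8.70 at 4 months. By class it was 1.56 and 7.03 in positive and 0.274 and 2.14 in negative parental cells, and 2.16 and 9.57 in positive and 0.199 and 2.49 in negative cells of 2 months. With equal weight of cells it was 2.66 at 6 h, 2.37 at 2 months, 2.85 and 0.542 in the parental classes and 4.90 and 0.336 in those of 2 months. Without the 5% deepest cells it was 3.75 at 48 h, 1.76 at 2 months and 2.88 in positive parental cells. Without any quality filter it was 1.75 at 2 months, 4.04 at 4 months and 0.330 in the negative cells of 2 months. At 2 months it was also 1.496 with a mitochondrial limit of 10% and 4.44 in signature-positive cells. In alternatives chosen after seeing the data, leaving out the cells lowest in stress genes gave 3.86 at 48 h, 1.99 at 2 months and 0.324 in the negative cells of 2 months, and leaving out the highest gave 2.92 at 6 h, 3.76 at 48 h and 1.47 at 2 months.

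With cells thinned to 1000 and 3000 UMIs, the share with a UMI of any anti-apoptotic member was 10.5% and 27.2% in culture, 27.2% and 53.5% at 6 h, 38.5% and 73.7% at 48 h, 17.7% and 42.1% at 2 months and 18.7% and 45.4% at 4 months. For any pro-apoptotic member it was 14.7% and 34.5%, 11.5% and 26.2%, 12.2% and 33.9%, 7.10% and 17.4%, and 5.38% and 14.4% in the same order.

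Scaling by the median of ratios sets the median log2 ratio of all genes, which otherwise was -0.17, -0.05, -0.20 and -0.37 against parental in time order, taken here over genes with at least 5 CPM in both groups and without CPM added. It moved the share of higher among all genes past 2-fold from 47.5% to 64.8% for 2 months and from 30.8% to 47.7% for 4 months against parental, from 57.8% to 47.7% for 48 h and from 36.1% to 51.0% for 4 months between positive cells, from 69.6% to 52.1% for 48 h against 6 h, from 24.4% to 43.8% for 4 against 2 months, from 40.7% to 55.1% for the parental classes and from 22.6% to 37.8% for the negative cells of 2 months. The 8 members higher at 48 h between positive cells were then 7.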
